A study of Homo sapiens with 3 samples.

Results

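The 10 high mobility group (HMG) protein genes examined here comprise HMGA1 and HMGA2, HMGB1 to HMGB4, and HMGN1 to HMGN4. They are 10 of the 62663 genes of the GENCODE annotation and 10 of its 20033 protein-coding genes. The genes were taken by name, and HMGB1 was selected on the measured p-value of its ZBTB11 peak, one of the strongest of the series, so the height of that peak is the reason for its choice and not a result. ZBTB11 is a zinc finger and BTB domain protein, and the chromatin immunoprecipitation sequencing (ChIP-seq) was carried out to learn where it sits on chromatin in lung cancer cells. All samples were untreated NCI-H1299 cells, a p53-null human lung adenocarcinoma line labelled as wild type, grown in DMEM with 10% FBS and fixed with formaldehyde. Chromatin was precipitated in 1 sample with an antibody against ZBTB11 (Bethyl, A303-240A) and in 1 sample with IgG (CST, 2729S). The paper elsewhere names an Invitrogen rabbit IgG for the ChIP-seq, so the IgG product is not settled. An input sample without antibody is not analysed here. With 1 library per antibody there was no replicate, and intervals given below are 95% intervals that cover counting error only.

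HMG proteins are small, abundant chromatin proteins that bind DNA or nucleosomes with little regard to sequence. HMGA proteins hold AT-hooks that enter the minor groove of AT-rich DNA, HMGB proteins hold HMG boxes that bend DNA, and HMGN proteins bind the nucleosome core and loosen chromatin. HMGA1 and HMGA2 are widely expressed in embryos and are raised again in many tumors, including lung tumors, and HMGB1 also acts as an alarm signal when released from cells. HMGB4 and HMGN4 are retrogenes, copies made through RNA, and the coding sequence of each lies in 1 uninterrupted segment.

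The ZBTB11 list held 346891 peaks on 24 chromosomes. For each peak the file gave the fold enrichment of the summit over the local background and the −log10 of its p-value and q-value. The number of fragments piled up at the summit (the pileup) was worked back from the fold and the p-value, and the median peak held 5 fragments. Only 26747 of the peaks, 7.71%, had a q-value of 0.05 or less. The IgG list as used here held 26712 peaks and covered chromosomes 1, 10 and 21 and a little of Y, so that HMGB4, HMGN1 and HMGN2 alone could be set beside it. A peak was taken as near a gene when its interval came within 3 kb of any annotated transcript start, and the canonical start is that of the transcript which Ensembl chose to represent the gene.

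The letters under the summits are shown first, because CCGGAAG and CAGGAAG together form the consensus element of ZBTB11 named in the study. Both forms were searched on both strands, and they do not overlap each other in these windows. Each window below is 30 bases long and is read from the hg38 genome, 5′ to 3′ on the strand given, and capitals mark the element. The strongest peak of HMGB1 held 3 copies, at chr13:30617804-30617833, chr13:30617867-30617896 and chr13:30617900-30617929, all on the plus strand, with centers 39, 24 and 57 bp from the summit.
HMGB1 copy 1: gcggagggcgaCCGGAAGtgctcacgtctt
HMGB1 copy 2: ccagcgtgcagCAGGAAGgaggactctttt
HMGB1 copy 3: gcggactcaagCCGGAAGccgccttcctag

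The peak of HMGN4 held a CCGGAAG 7 bp from its summit at chr6:26538323-26538352 on the plus strand, and a CAGGAAG 21 bp from it at chr6:26538351-26538380 on the minus strand. The much weaker peak of HMGN1 held 1 CCGGAAG 21 bp from its summit, at chr21:39349242-39349271 on the minus strand.
HMGN4 copy 1: cgcctgcagccCCGGAAGcgcatcctcacc
HMGN4 copy 2: ctccgccaggaaCAGGAAGgcgagggaagg
HMGN1: gggggggggcccCCGGAAGggggcggggtc

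The windows centered on the summits of HMGA2, HMGA1 and HMGN2 are given for contrast, since none of these peaks had a copy within 50 bp of the summit. They lie at chr12:65824602-65824631, chr6:34236857-34236886 and chr1:26472650-26472679, all on the plus strand, which is the strand of the genes.
HMGA2 summit: ccacccactactctgtcctctgcctgtgct
HMGA1 summit: ctgcccctgggtcgctctttttaagctccc
HMGN2 summit: gcgccgggccaccactgccgccaccgccgc

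Among the 9 members with a peak, the element lay within 50 bp of the summit of the strongest one in 3 (HMGB1, HMGN1 and HMGN4), and each of these 3 had a CCGGAAG there. Among all protein-coding genes with a near-start peak the share was 15.8%. It was 42.5% (40.5 to 44.6%) among the 2297 genes whose strongest peak held at least the 68 fragments of HMGA1, and 11.8% (11.3 to 12.4%) among the 15278 genes with fewer. For CCGGAAG alone these 3 shares were, in the same order, 10.5%, 36.5% and 6.59%. HMGB1 and HMGN4 were in the class of at least 68 fragments and had the element, HMGA1 and HMGA2 were in it without the element at the summit, and HMGN1 had the element with 10 fragments. HMGB1 was selected for its strong peak, and strong peaks held the element more often, so 3 of 9 is not comparable with 15.8%. The cut of 68 fragments was taken from HMGA1, the lowest of the strong members, so their place in the upper class was fixed by it. HMGA1, HMGA2 and HMGN2 had a CAGGAAG elsewhere in the peak, 189, 300 and 549 bp from the summit. A match is a description of letters and does not show where the protein made contact.

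ZBTB11 peaks lay near a transcript start of 9 of the 10 HMG genes, with HMGB4 the exception. Among all protein-coding genes 87.7% had such a peak, and the count of HMG genes lay near this background. A peak with a q-value of 0.05 or less was found at 7 of the 10 (2 of 2 HMGA, 2 of 4 HMGB and 3 of 4 HMGN genes), against 55.3% of all protein-coding genes. HMGB1 is among the 7 and among the 2 HMGB genes, and its call followed from its selection. These counts are thus raised by that choice and are description only. The heights spanned a wide range, from 4 fragments at HMGB3 to 473 at HMGB1. In descending order the strongest peaks held 473 fragments at HMGB1, 145 at HMGA2, 140 at HMGN4, 68 at HMGA1, 13 at HMGN2, 10 at HMGN1, 8 at HMGN3, 7 at HMGB2 and 4 at HMGB3. After the 68 fragments of HMGA1 the next member in the order had 13.

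**Figure D1:**
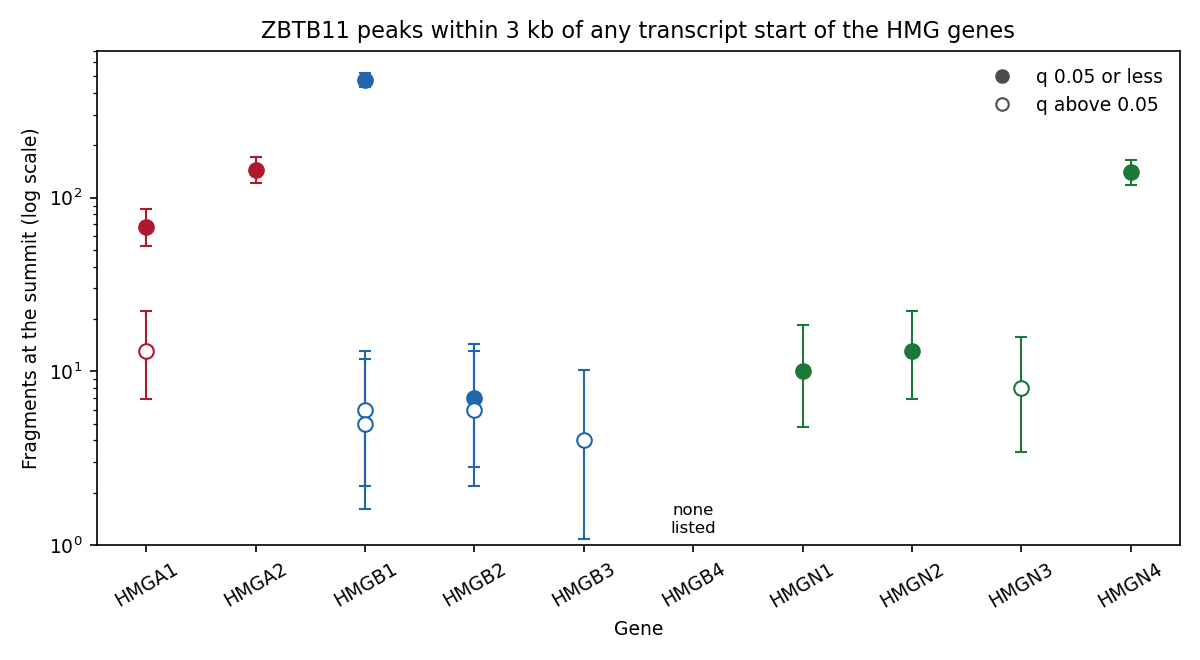
Fragments at the summit (log axis) of every ZBTB11 peak within 3 kb of a transcript start of each HMG gene, with 95% Poisson intervals of the count as bars; red, HMGA; blue, HMGB; green, HMGN; filled points have a q-value of 0.05 or less. HMGB1, HMGA2, HMGN4 and HMGA1 stand at 68 to 473 fragments, the other strongest peaks at 4 to 13, and HMGB4 has no peak listed.

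Some neighbors in this order were not separated by counting error. The intervals of HMGA2 (122 to 171 fragments) and HMGN4 (118 to 165) overlapped each other, and both lay above that of HMGA1 (52.8 to 86.2) and below that of HMGB1 (431 to 518). The intervals of HMGN2 (6.92 to 22.2), HMGN1 (4.80 to 18.4), HMGN3 (3.45 to 15.8), HMGB2 (2.81 to 14.4) and HMGB3 (1.09 to 10.2) overlapped one another, so the order among these 5 was not resolved at this depth. At the threshold itself, HMGB2 lay just inside with a −log10 q of 1.32, and HMGN3 lay outside with 0.724.

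The 3 families did not form 3 levels. The median of the strongest near-start peak was 106 fragments for the HMGA genes, 5.5 for the HMGB genes with HMGB4 counted as 0, and 11.5 for the HMGN genes, against 9 for all protein-coding genes. The HMGA median came from 2 genes of 68 and 145 fragments. The HMGB family held the highest and the lowest values of all members, 473 and 0, but HMGB1 was selected for that high peak. By the canonical start HMGB1, HMGB2 and HMGB3 held 6, 7 and 4 fragments. These lay below the lowest HMGN value of 8, with overlapping intervals. In the HMGN family HMGN4 stood at 140 fragments while HMGN1, HMGN2 and HMGN3 stood between 8 and 13.

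HMGA1 and HMGA2 encode the AT-hook proteins, and both had their peak directly at the canonical start. The HMGA2 peak (chr12:65824235-65824961, 727 bp wide) had a fold of 15.5, a −log10 p of 123 and rank 982 in the whole list. The summit was 134 bp into the transcribed sequence, within the 5′ UTR, and the interval covered the starts of 9 HMGA2 transcripts and of no other gene. The HMGA1 peak (chr6:34236553-34237205, 653 bp wide) had a fold of 10.0, a −log10 p of 47.7 and rank 2213. Its summit lay 1 bp upstream of the canonical start, and the interval covered the starts of 7 HMGA1 transcripts, some of which coincide, together with the start of an lncRNA on the opposite strand, ENSG00000288879, 124 bp from the summit. A second HMGA1 peak (chr6:34237827-34238383) lay in an intron 1304 bp from the canonical start and held 13 fragments over a local background of 6.09, with a −log10 q of 0.239. By the p-value of the strongest near-start peak, HMGA2 ranked 1182 among protein-coding genes and HMGA1 ranked 2460, within the top 5.90% and 12.3%.

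HMGB1 encodes the most abundant HMG box protein, and its strong peak lay far from its canonical start. The peak (chr13:30617480-30618287, 808 bp wide) held 473 fragments over a background of 20.0, with a fold of 22.6 and a −log10 p of 456. It covered 1 HMGB1 start, that of 1 of the 8 annotated transcripts (minus strand, start at chr13:30617597), and the summit was 260 bp upstream of that start. The same interval covered all 3 starts of USPL1, a gene on the opposite strand that encodes a SUMO-specific isopeptidase. The canonical USPL1 start was the nearest start of any gene, 63 bp from the summit. The canonical start of HMGB1 lay 151921 bp from this summit, and no HMGB1 transcript was annotated to begin in the 151659 bp between the upstream start and the next one. The peak was thus shared by a USPL1 promoter and a single upstream HMGB1 start, and the list cannot tell the 2 genes apart.

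The stretch between the upstream HMGB1 start and the first USPL1 start is printed because it lies between the divergent starts and is covered in full by the peak. It is chr13:30617598-30617692 on the minus strand, taken from the RefSeq promoter of HMGB1 on GRCh38.p14, and it holds no copy of the element. The first USPL1 start is that of a non-canonical transcript. All 3 copies lay between it and the canonical USPL1 start at chr13:30617920. They were thus upstream both of the HMGB1 start and of the canonical USPL1 start.
HMGB1 upstream stretch: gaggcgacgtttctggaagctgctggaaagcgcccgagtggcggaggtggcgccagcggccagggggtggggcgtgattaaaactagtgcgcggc

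Around the canonical start of HMGB1 the values were of another order, and no peak covered that start. The strongest peak within 3 kb of it (chr13:30464258-30464621) held 6 fragments (2.20 to 13.1) over a background of 1.35, with a fold of 2.97 and a −log10 q of 0.724. Its summit lay 1614 bp from the canonical start and 12 bp from the start of another protein-coding HMGB1 transcript. A further peak (chr13:30466557-30466964) held 5 fragments with a −log10 q of 0.239, and an lncRNA start 649 bp away was nearer to it than any HMGB1 start. By any start HMGB1 ranked 5 among protein-coding genes, and by the canonical start it ranked 11005, at 54.9%. When all genes were judged by the canonical start alone, a q-value of 0.05 or less was reached by 50.6% of protein-coding genes and by 6 HMG genes, HMGB1 no longer among them. A strongest peak away from the canonical start was uncommon but not unique to HMGB1. Of the 1204 protein-coding genes whose strongest near-start peak ranked 1 to 1000, 106 genes (8.80%, 7.33 to 10.5%) did not have that peak as the strongest one near their canonical start. This count takes in any distance beyond 3 kb, so it does not show how often a peak lies as far away as that of HMGB1. Genes that share a peak were each counted, so the interval is too narrow.

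**Figure D2:**
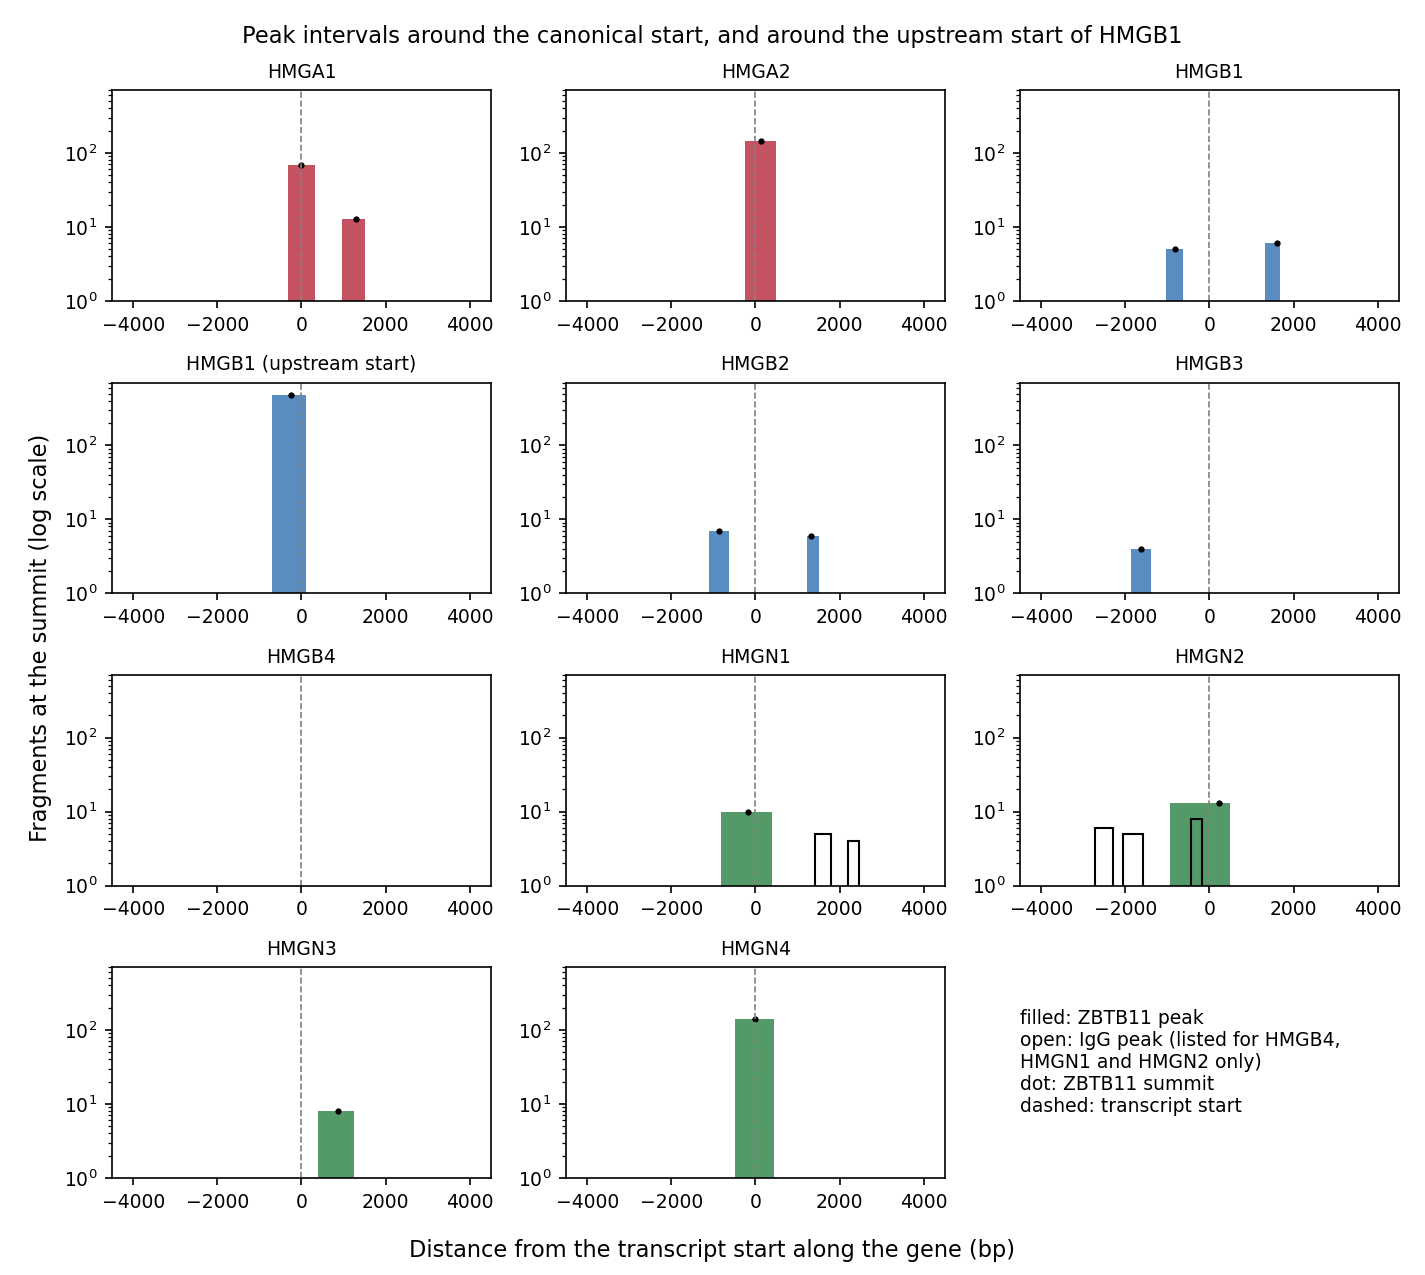
Position of each ZBTB11 peak interval (filled) relative to the canonical start of each HMG gene, in bp along the direction of transcription, with height giving fragments at the summit on a log axis; HMGB1 is drawn at both its canonical and its upstream start, and IgG peaks are drawn as open boxes. The strongest peaks of HMGA1, HMGA2 and HMGN4 and the low peaks of HMGN1 and HMGN2 cover the canonical start. The HMGB1 peak of 473 fragments covers only the upstream start, and HMGB4 has no peak.

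The peaks ranked around that of HMGB1 were of like height, which shows where the selection of HMGB1 fell. The strongest of the list, at NUF2 and RGS5, held 482 fragments with a −log10 p of 462, and the second, at NME1 and NME1-NME2, held 507 with 456. The peak of HMGB1 and USPL1 ranked 3. It was followed by that of AQR with 476 fragments and a −log10 p of 452, and by that of ENPP3 and MED23 with 499 and 451.

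The other HMGB genes had weak peaks or none. HMGB2, a proliferation-linked HMG box protein, had a peak (chr4:173334993-173335474) of 7 fragments over a background of 1.39, with a fold of 3.34 and a −log10 p of 3.99. Its summit lay 791 bp upstream of an HMGB2 start, and an lncRNA start (ENSG00000288728) was nearer at 471 bp. A second HMGB2 peak (chr4:173332854-173333141) held 6 fragments with a −log10 q of 0.567. HMGB3, found in early blood progenitors, had 1 peak (chrX:150981475-150981936) of 4 fragments with a −log10 q of 0, and the 31 bases at its summit occurred 6 times in the genome. HMGB4, a testis-enriched retrogene that lies within CSMD2 on the opposite strand, had no peak within 3 kb. The nearest peak was 4364 bp from an HMGB4 start and held 5 fragments with a −log10 q of 0.239.

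**Figure D3:**
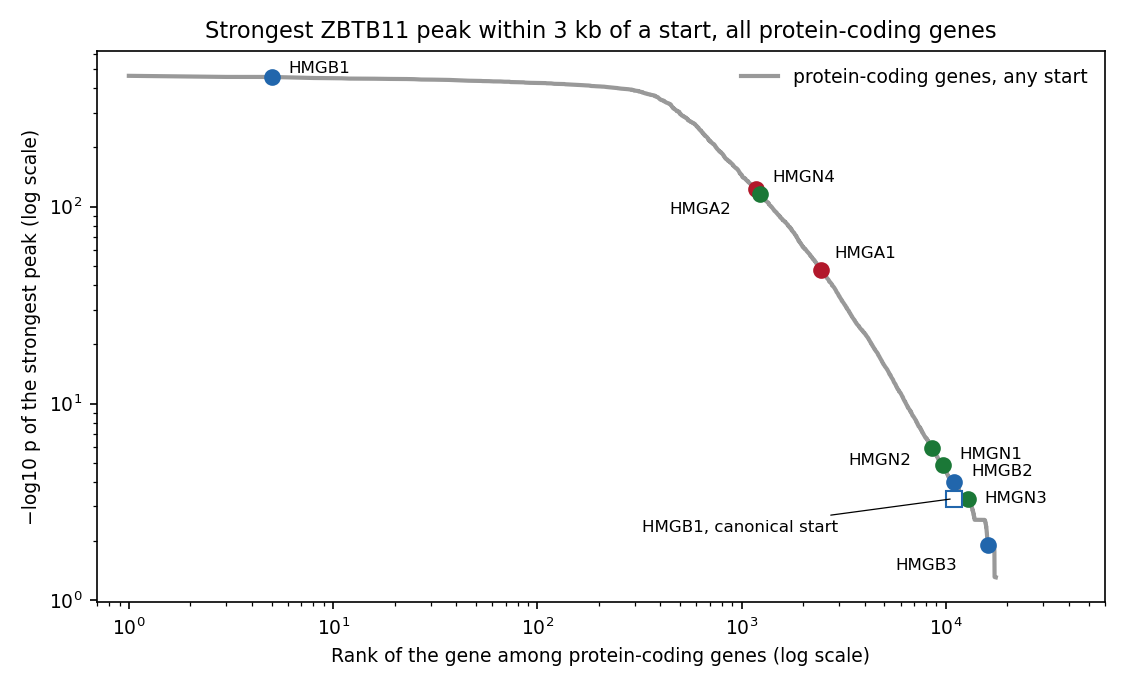
The −log10 p of the strongest ZBTB11 peak within 3 kb of any start against rank, for all protein-coding genes with such a peak (grey line) and the HMG genes (points; red, HMGA; blue, HMGB; green, HMGN), both axes logarithmic. HMGB1 ranks 5 by any start, and the open square at rank 11005 marks it by its canonical start alone, ranked among genes judged the same way.

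HMGN4 was the one HMGN gene with a strong peak. The peak (chr6:26537883-26538800, 918 bp wide) had a fold of 14.8, a −log10 p of 116 and rank 1032, and its summit lay 22 bp upstream of the canonical start. The interval covered 2 HMGN4 starts and no start of another gene. HMGN4 ranked 1236 among protein-coding genes, at 6.17%, close to HMGA2. The 250 bases before its start are printed because the summit and the CCGGAAG, in capitals, both fall near their 3′ end. They are chr6:26538116-26538365 on the plus strand, from the RefSeq promoter on GRCh38.p14.
HMGN4 promoter: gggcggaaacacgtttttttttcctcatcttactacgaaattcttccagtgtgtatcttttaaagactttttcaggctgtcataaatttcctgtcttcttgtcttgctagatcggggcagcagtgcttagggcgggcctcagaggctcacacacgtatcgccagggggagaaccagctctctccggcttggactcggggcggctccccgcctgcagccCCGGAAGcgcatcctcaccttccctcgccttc

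HMGN1, HMGN2 and HMGN3, nucleosome-binding proteins with introns in their coding sequence, had low peaks. The HMGN2 peak (chr1:26471502-26472921) held 13 fragments over a background of 2.73, with a fold of 3.75 and a −log10 q of 3.06, and its summit lay in an intron 148 bp downstream of a start. The HMGN1 peak (chr21:39348685-39349901) held 10 fragments over 2.12, with a fold of 3.53 and a −log10 q of 2.08, and covered the starts of 17 HMGN1 transcripts. The HMGN3 peak (chr6:79233427-79234293) held 8 fragments over 2.24, and its summit was 118 bp from the start of the antisense gene HMGN3-AS1 and 797 bp from an HMGN3 start. These peaks were wider than most of like height. The HMGN2 interval was 1420 bp, against a median of 693 bp for near-start peaks within 10% of the same pileup, 3.97% of which were at least as wide. The HMGN1 interval was 1217 bp against 500 bp (4.26%), and the HMGN3 interval was 867 bp against 393 bp (7.24%). The low peaks of HMGB2 and HMGB3 were also wider than their medians, with 24.3% and 14.8% at least as wide. Of the strong peaks, those of HMGB1, HMGA1 and HMGA2 were narrower than the median, at 808 bp against 896 bp, 653 bp against 883 bp and 727 bp against 866 bp, while that of HMGN4 was wider, at 918 bp against 862 bp.

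The IgG list served as background for HMGN1, HMGN2 and HMGB4. IgG peaks lay within 3 kb of a start of HMGN1 and HMGN2 and not of HMGB4, 2 of 3 genes, against 68.7% of the protein-coding genes of chromosomes 1, 10 and 21. The strongest IgG peak of HMGN2 (chr1:26471993-26472255) held 8 fragments with a fold of 3.03 and a −log10 q of 0.556, and all of its 263 bp lay inside the ZBTB11 peak of 13 fragments and fold 3.75. The other IgG peaks of HMGN2 held 6 and 5 fragments. HMGN1 had IgG peaks of 5 and 4 fragments, the nearer 745 bp from a start, and neither overlapped the ZBTB11 peak. The IgG and ZBTB11 peaks of HMGN2 were thus close in fold, but the ZBTB11 summit at chr1:26472665 lay outside the IgG peak. The −log10 q was 3.06 for the ZBTB11 peak and 0.556 for the IgG peak. The mapped depth of each library is not given in the sources used here, so the pileups are given side by side without a ratio.

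Within the gene bodies, more than 3 kb from any start of the gene itself, ZBTB11 peaks were low. The 8 HMG genes long enough to have such a stretch held 32 peaks in 328 kb, which is 9.75 per 100 kb (6.67 to 13.8), against 12 for all protein-coding genes. Of the 32, 4 (12.5%) had a q-value of 0.05 or less, against 3.88% of such peaks in all protein-coding genes; 2 of these 4 were in HMGA2, 1 in HMGA1 and 1 in HMGN3. The rate was 12.3 per 100 kb (7.19 to 19.8) in the HMGA genes, 6.60 (3.17 to 12.1) in the HMGB genes and 12.8 (4.15 to 29.8) in the HMGN genes, and the intervals overlapped. HMGA2 had 16 body peaks of 5 to 8 fragments, the strongest (chr12:65956048-65956822) in a UTR 132 kb from the canonical start with a fold of 3.43. HMGB1 had 10 of 3 to 6 fragments, none with a q-value of 0.05 or less, in the long stretch spanned by its upstream transcript. HMGN3 had 5 of 4 to 8 fragments. The tallest body peak was the single one of HMGA1 (chr6:34244093-34244614), which held 19 fragments in an intron 7.5 kb from the start, with a fold of 3.71 and a −log10 q of 4.4.

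The DNA around the canonical starts was compared in windows of 300 bp, 250 before and 50 after the start. The GC content was 56.7 to 79.3% in 9 of the genes and 48.3% in HMGB4, against a median of 63.7% over all protein-coding genes. HMGB4 also had a CpG observed-to-expected ratio of 0.115, at percentile 6.07, whereas the other members had 0.659 to 0.969 against a median of 0.775. HMGN1 had the highest GC content, at percentile 95.1, with a peak of 10 fragments, and HMGN4 one of the lower, at percentile 29, with a peak of 140. The element was present in 4 of the 10 windows (HMGA2, HMGB4, HMGN1 and HMGN4), against 24.7% of all protein-coding windows. At the upstream start of HMGB1 the window had 67.7% GC, a CpG ratio of 1.01 and 1 CCGGAAG, and at the canonical start it had 58.7%, 0.659 and none.

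Genes related to the members were read from lists by the same measure. Of a list of 21 chromatin and signaling genes, all with an HMG box except HMGN5, 19 had a near-start peak and 17 (81.0%, 60.0 to 92.3%) had one with a q-value of 0.05 or less, with a median of 17 fragments. The strongest were HMGXB3 with 424 fragments, shared with TIGD6, SSRP1 with 130, shared with P2RX3, and TOX4 with 61, shared with RAB2B. SSRP1 is a subunit of the histone chaperone FACT. No peak was listed for HMGN5, a nucleosome-binding HMGN gene, or for TOX3. Of 19 SOX transcription factor genes, which also hold an HMG box, 10 (52.6%, 31.7 to 72.7%) had a peak with a q-value of 0.05 or less, and the median was 7. By p-value the strongest were SOX17 with 65 fragments, SOX6 with 18 and SOX21 with 13. The SOX6 peak was not near its canonical start. SOX1, SOX3, SOX11 and SOX15 had no near-start peak. Of 10 linker histone genes, whose products compete with HMG proteins for nucleosomes, 5 (a share with an interval of 23.7 to 76.3%) had a peak with a q-value of 0.05 or less. Their median was 9, and the highest values were at H1-2 with 22 and H1-4 with 19, the latter shared with H2BC5. These shares stand beside 55.3% for all protein-coding genes.

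**Figure D4:**
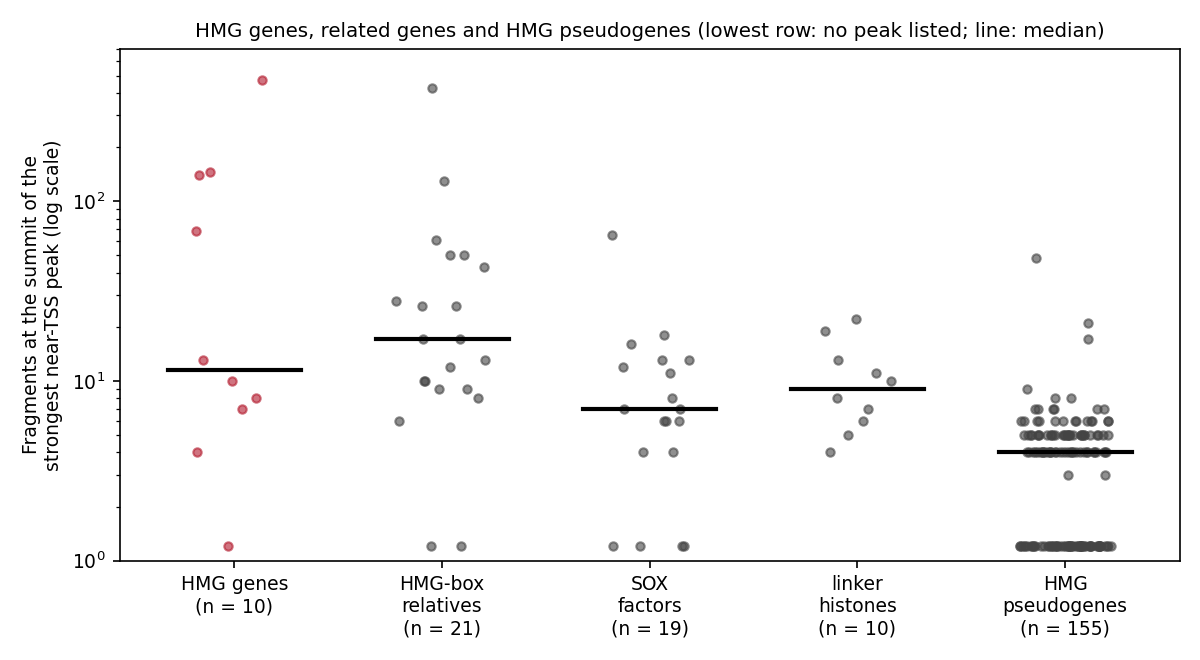
Fragments at the summit of the strongest near-start ZBTB11 peak (log axis) for each of the 10 HMG genes, the related gene lists and the 155 HMG pseudogenes; each point is a gene, the lowest row holds genes with no listed peak, and black lines are medians. The medians are 11.5, 17, 7, 9 and 4 fragments from left to right, and HMGXB3 with 424 fragments comes nearest to HMGB1 with 473.

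HMG genes have left many pseudogenes in the genome, which carry copies of the transcript but seldom of the promoter. Of 155 annotated HMG pseudogenes, 92 had a peak within 3 kb, a state found in 55% of all processed pseudogenes. A peak with a q-value of 0.05 or less was near 5 of them (3.23%, 1.39 to 7.33%), against 5.34% of all processed pseudogenes. These 5 were HMGN2P46 with 48 fragments, HMGB3P5 with 21, HMGA1P8 with 17, HMGN1P2 with 8 and HMGN1P36 with 7. The summit at HMGN2P46 was 131 bp from a start of SLC30A4, and that at HMGA1P8 was 24 bp from a start of WDR54, so both lay at the promoter of another gene. None of the 47 HMGB1 pseudogenes had a peak with a q-value of 0.05 or less, and the highest value among them was 9 fragments. A peak overlapped 23 of the 155 pseudogenes themselves, with 3 to 48 fragments, and 3 of these peaks had a q-value of 0.05 or less. Among all processed pseudogenes 13.7% were overlapped by a peak.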

How the data were processed

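Paired-end reads were aligned by the authors to hg38 with BWA, and peaks were called with MACS for each library separately at a p-value below 0.05. Whether the input entered the call is not given in the sources used here, and the layout of the deposited lists is that of later MACS releases than the one named. The deposited columns used were the fold enrichment (ratio) of the summit, the −log10 p and −log10 q, the score, which is 10 times the −log10 p and was only checked, and the summit offset. The mapped depth of each library is not given in the sources used here. Summit pileup was recovered as the whole number k that gave fold = (k + 1)/(background + 1) and the Poisson p to within a tolerance of 0.001, with Python 3.11.15, pandas 2.3.3, numpy 2.4.6 and scipy 1.17.1; it was solved for 100% of peaks and, tested on simulated data, returned 99.98% of 20000 ZBTB11-like and 100% of 20000 IgG-like values. Genes came from GENCODE 44, letters from hg38 (pysam 0.24.0) and the RefSeq promoter table, which held 8 of the 10 members (not HMGA2 or HMGB2). Intervals are Wilson for shares and exact Poisson for counts, at 95%, and no test was run because each antibody had 1 library. Genes that share a peak were each counted in the shares over genes, so those Wilson intervals are narrower than independent genes would give. The members and lists were chosen with earlier results of these data known. Named were all members, genes with a start in a member's strongest peak, the 2 ranked just above and just below HMGB1, up to 5 pseudogenes with a q-value of 0.05 or less, and in each list the 3 strongest genes and those without a peak; 1 of these genes is not reported here. Peaks on unplaced scaffolds and the input were not used.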

Additional observations from a re-analysis of the deposited data

How the results depend on the processing

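No paired analysis was possible because each antibody had 1 library. Of 35 alternative values for 10 results, 26 stayed within the counting interval or within 1.5 times the main count, and 9 moved. With a p-value of 1e-05 or less, 5 members instead of 9 had a near-start peak. HMGB1 fell from 473 to 6 fragments both when the nearest start had to belong to HMGB1 and when the Ensembl canonical start alone was used, and the latter was chosen after seeing the data, as were 6 of the alternatives. The element was found in 6 members instead of 3 when the whole peak interval was searched. The rate of body peaks went from 9.75 to 1.22 per 100 kb with a q-value of 0.05 or less. The bodies of all protein-coding genes held 5198 such peaks in about 1120000 kb. The overlap of ZBTB11 with IgG peaks went from 1 to 0 when it had to cover at least 50% of the ZBTB11 peak, and to 0 when IgG peaks needed a q-value of 0.05 or less. The share of pseudogenes went from 3.23% to 59.4% with all peaks and to 1.29% within 1 kb. The count of 7 members with a q-value of 0.05 or less became 5 under the nearest-start rule and 6 by the canonical start. By the canonical start 50.6% of all protein-coding genes reached it. For the other alternative member counts, the search of whole peak intervals included, the share over all protein-coding genes was not worked out. They thus have no background beside them, and neither has the share of pseudogenes within 1 kb. The mapped depth, which is not given, and the lack of a replicate limit every value.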
